A study of Mus musculus with 2 samples.

Results

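TRAV14 is a subgroup of variable (V) genes of the T cell receptor (TCR) alpha chain, known as Vα2 in the older nomenclature. Its chains were taken from the assembled TCR transcripts of single thymic CD4 SP T cells as every TRA chain whose V gene call was a TRAV14 gene, whatever its copy letter or member number. This gave 374 of 3782 TRA chains, in 373 of the 3502 cells with a TRA chain, and 7 of the 89 TRAV genes that were called. The series held 9117 cells, so most cells gave no TRA chain. CD4 SP T cells were enriched from thymocyte suspensions by negative selection with a naive CD4+ T cell kit and run through the 10x Genomics V(D)J workflow. There was 1 library from WT mice of the strain C57BL/6J and 1 library from Btla-/- mice, labelled C57BL/6-Btla KO, a germline loss of the co-inhibitory receptor BTLA. Both came from mice aged 8 to 12 weeks, and the number of mice behind each library is not given in the sources used here. Neither genotype had a second library, so no test between genotypes was made. Shares are given with exact (Clopper-Pearson) 95% intervals and medians with binomial order-statistic intervals, and both cover counting error only. The libraries are described as apart where these intervals did not overlap.

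An alpha chain is made when a V gene is joined to one of many joining (TRAJ) segments, which lie between the V genes and the constant gene TRAC. The joint forms the CDR3 loop, which lies over the peptide in the TCR interface, while the CDR1 and CDR2 loops are fixed by the V gene and mostly contact the MHC molecule. Rearrangement of the alpha locus starts with V genes and TRAJ segments that lie close to each other and can be repeated on the same chromosome with V genes farther upstream and TRAJ segments farther downstream. Part of the mouse TRAV cluster has been duplicated, which gives the copies with the letters D and N. Vα2 chains are widely known from TCR transgenic mice: those of OT-II CD4 T cells are paired with Vβ5, which belongs to the TRBV12 subgroup.

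The 9 annotated TRAV14 genes lie on the plus strand of chromosome 14 in the GRCm38 build. TRAV14D-1 (52855614 to 52856166), TRAV14D-2 (52948568 to 52949169) and TRAV14D-3-DV8 (53078452 to 53079045) come first. They are followed by TRAV14N-1 (53166626 to 53167178), TRAV14N-2 (53259578 to 53260179) and TRAV14N-3 (53370077 to 53370575). TRAV14-1 (53554022 to 53554558), TRAV14-2 (53640701 to 53641225) and TRAV14-3 (53763173 to 53763694) are nearest to the TRAJ cluster. The end of TRAV14-3 is 394 kb from TRAJ58, the first TRAJ segment found in the libraries, and that of TRAV14D-3-DV8 is 1078 kb from it. TRAV14D-1 and TRAV14N-1 have 0 differences over 364 coding bases, and so have TRAV14D-2 and TRAV14N-2. Chains called TRAV14N-1 or TRAV14N-2 can therefore come from either copy, and no chain was called TRAV14D-1 or TRAV14D-2.

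The genes differ in the loops that they encode. The 7 called genes differed from each other at 5 to 20 of 267 bases of the V region before the CDR3. Of the 374 chains, 373 were identical to a germline TRAV14 gene over this stretch, and 372 to the gene that was called. The remaining mismatch was 1 WT chain called TRAV14D-3-DV8 that carried the sequence of TRAV14-2. The 3 CDR1 sequences are shown because they, with the CDR2, are what tells the members apart at the receptor surface. Capitals mark the bases that differ among the 3, and the residues stand in the names.
CDR1 NSAFDY of TRAV14D-3-DV8, TRAV14N-3 and TRAV14-3: AacagTGcttttGactac
CDR1 DSTFNY of TRAV14N-1 and TRAV14-1: GacagCActtttAactac
CDR1 DSTFDY of TRAV14N-2 and TRAV14-2: GacagCActtttGactac
The CDR2 also has 3 forms, with capitals used in the same way.
CDR2 IRPVSNK of TRAV14N-2 and TRAV14-2: atacGtCcagtgtccAataaa
CDR2 IRSVSDK of TRAV14N-1, TRAV14N-3 and TRAV14-3: atacGtTcagtgtccGataaa
CDR2 ILSVSDK of TRAV14D-3-DV8 and TRAV14-1: atacTtTcagtgtccGataaa
The CDR1 NSAFDY was carried by 157 chains, DSTFNY by 116 and DSTFDY by 99. Of the 5 combinations of CDR1 and CDR2 that occur, NSAFDY with IRSVSDK was the most frequent, in 32.1% (25.2–39.8%) of WT and 29.9% (23.7–36.7%) of Btla-/- chains. None of the 5 was apart between the libraries. In contrast to these loops, the start of the CDR3 is the same in all 9 genes.
germline V end of the TRAV14 genes, from the conserved cysteine: tgtgcagcaagtg

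TRAV14 made up 9.13% (7.86–10.5%; 170 of 1862) of the WT TRA chains and 10.6% (9.28–12.1%; 204 of 1920) of those of Btla-/- cells, so the intervals overlapped. It ranked below TRAV6 with 16.1% of WT and 15.6% of Btla-/- chains, TRAV7 with 12.7% and 15.1%, TRAV12 with 11.1% and 11.1%, and TRAV13 with 10.4% and 10.9%. The intervals of TRAV12, TRAV13 and TRAV14 overlapped in both libraries. Of the 16 TRAV subgroups that held at least 1% of the chains of a library, 6.25% were apart between the libraries, and TRAV14 was not among them. By the log2 ratio of the Btla-/- to the WT share, 0.22 for TRAV14, the nearest subgroups were TRAV7 at 0.25, TRAV4 at 0.12 and TRAV8 at 0.089. This likeness is a description over 2 libraries.

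The 7 genes were used at similar levels, between 0.99% and 2.19% of all TRA chains in either library. TRAV14N-3 was called in 27 WT and 42 Btla-/- chains, TRAV14N-1 in 26 and 41, and TRAV14N-2 in 22 and 31. TRAV14D-3-DV8 was called in 20 and 23. Of the genes nearest to TRAJ, TRAV14-1 was called in 23 and 26 chains, TRAV14-2 in 25 and 22, and TRAV14-3 in 27 and 19. All 7 passed the minimum of 1% of the chains of a library, and 0 of the 7 were apart between the libraries, where 2.08% of all 48 TRAV genes past this minimum were. The shares of the D and N copies were all higher in the Btla-/- library, and those of TRAV14-2 and TRAV14-3 were lower. Together, the D and N copies gave 55.9% (48.1–63.5%) of the WT TRAV14 chains and 67.2% (60.3–73.6%) of those of Btla-/- cells. As a share of all TRA chains they gave 5.10% (4.15–6.20%) and 7.14% (6.02–8.38%), and these intervals also overlapped. The direction was the same in the other TRA chains. There, D and N copies gave 49.6% (47.24–52.06%) of WT and 54.5% (52.10–56.86%) of Btla-/- chains, and these intervals, from more chains, were narrowly apart.

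**Figure D1:**
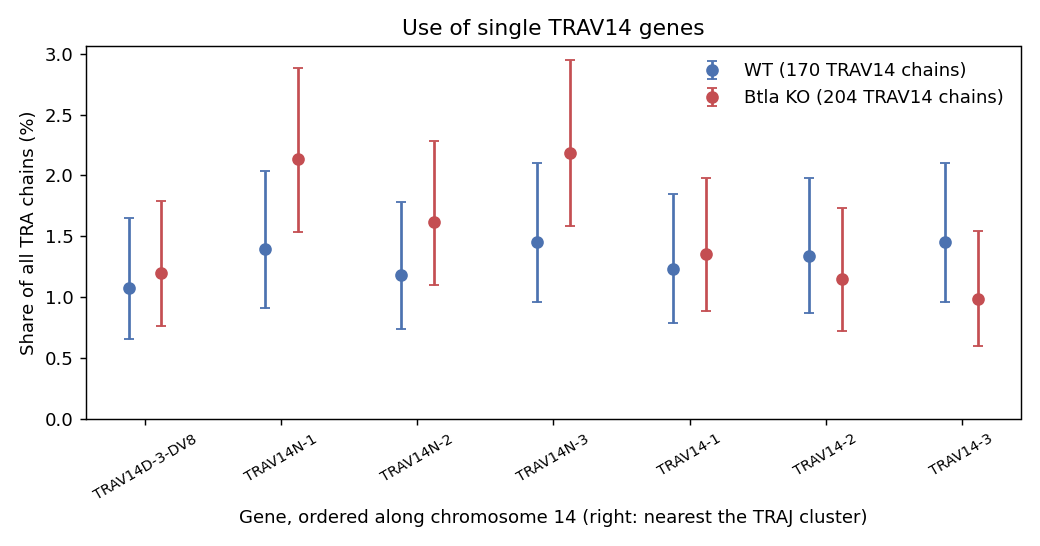
Share of all TRA chains (y axis, percent) held by each TRAV14 gene, ordered along chromosome 14, in the WT and Btla-/- libraries; points are shares and bars exact 95% intervals. The intervals of the 2 libraries overlap for all 7 genes.

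The TRAJ partner differed strongly between the D and N copies and the 3 genes nearest to TRAJ. TRAJ segments are numbered from TRAC outwards, so that TRAJ1 to TRAJ30 are the part farthest from the V genes. In the WT library, TRAV14-1, TRAV14-2 and TRAV14-3 used TRAJ1 to TRAJ30 in 10 of 75 chains, or 13.3% (6.58–23.2%), and the D and N copies in 65 of 95, or 68.4% (58.1–77.6%). In the Btla-/- library it was 19 of 67, or 28.4% (18.0–40.7%), and 95 of 137, or 69.3% (60.9–76.9%). The intervals of the 2 sets of genes were far apart in both libraries, whereas for each set those of the libraries overlapped. The median TRAJ number was 47 (40 to 49) in WT and 39 (32 to 42) in Btla-/- chains for the 3 genes nearest to TRAJ, and 23 (21 to 26) and 22 (18 to 23) for the D and N copies. The division of the genes into these 2 sets was made after their TRAJ use had been seen.

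The ends of the TRAJ cluster showed the division most clearly. TRAJ2 to TRAJ9, next to TRAC, were found in 1 of 75 WT and 1 of 67 Btla-/- chains of the 3 genes nearest to TRAJ. In the D and N copies they were found in 20 of 95 and 32 of 137. At the opposite end, TRAJ42 to TRAJ58 were used by 60.0% (48.0–71.1%) of WT and 43.3% (31.2–56.0%) of Btla-/- chains of the 3 genes nearest to TRAJ, and by 17.9% (10.8–27.1%) and 16.1% (10.3–23.3%) of the D and N copies.

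Among the single genes, TRAV14-3 had the lowest share of TRAJ1 to TRAJ30, in 2 of 27 WT and 2 of 19 Btla-/- chains, and a median TRAJ number of 49 and 43. TRAV14N-2, a gene with a high share, had 18 of 22 and 25 of 31, with medians of 21 and 18. Over both libraries, TRAV14D-3-DV8, TRAV14N-1, TRAV14N-2 and TRAV14N-3 had 74.4%, 61.2%, 81.1% and 63.8%, with no steady trend along the chromosome. The gene with the widest gap between the libraries was TRAV14-1, with 2 of 23 WT chains, or 8.70% (1.07–28.0%), and 11 of 26 Btla-/- chains, or 42.3% (23.4–63.1%). These intervals overlapped.

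**Figure D2:**
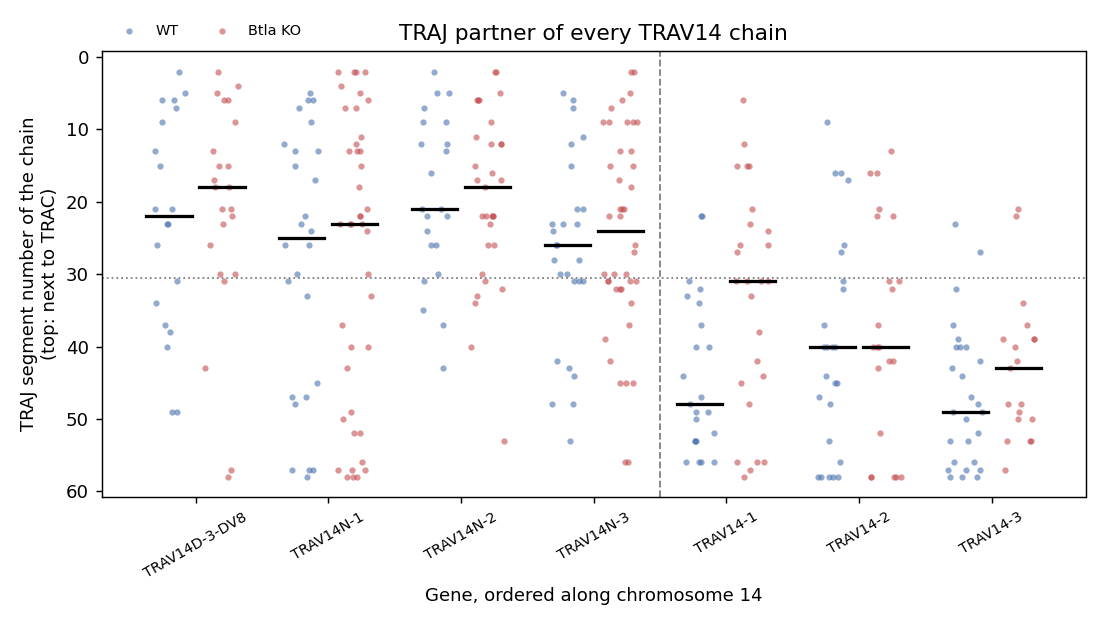
TRAJ segment number (y axis, small numbers next to TRAC at the top) of every TRAV14 chain by V gene in chromosome order; each point is 1 chain, black bars are medians, the dotted line lies between TRAJ30 and TRAJ31 and the dashed line separates the D and N copies from the 3 genes nearest to TRAJ. Medians lie between 18 and 26 left of the dashed line and between 31 and 49 right of it.

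V genes of other subgroups that lie beside the TRAV14 genes, taken where they had at least 20 chains, had TRAJ use in the same range. Over both libraries together, TRAJ1 to TRAJ30 were used by 26.5% (14.9–41.1%) of the 49 TRAV14-1 chains, beside 36.8% (27.6–46.7%) for its upstream neighbour TRAV13-1 and 38.2% (22.2–56.4%) for TRAV9-2 downstream. For TRAV14-2 it was 25.5% (13.9–40.3%) of 47 chains, beside 22.6% for TRAV13-2 and 19.4% for TRAV9-4. For TRAV14-3 it was 8.70% (2.42–20.8%) of 46 chains, beside 0 of 29 (0–11.9%) for TRAV13-4-DV7 and 1 of 41 for TRAV17. The interval of each TRAV14 gene overlapped with those of both neighbours. All TRA chains of other subgroups from the same undivided part of the cluster as the 3 genes, which reaches farther upstream, used TRAJ1 to TRAJ30 in 32.0% (28.6–35.5%) of WT and 36.7% (32.9–40.7%) of Btla-/- chains. The WT interval of the 3 TRAV14 genes lay below that one, and the Btla-/- interval overlapped with its counterpart. The D and N copies of other subgroups had 66.4% (63.1–69.6%) and 73.6% (70.6–76.4%), overlapping with those of TRAV14 in each library. Between the libraries, the D and N copies of other subgroups were apart.

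**Figure D3:**
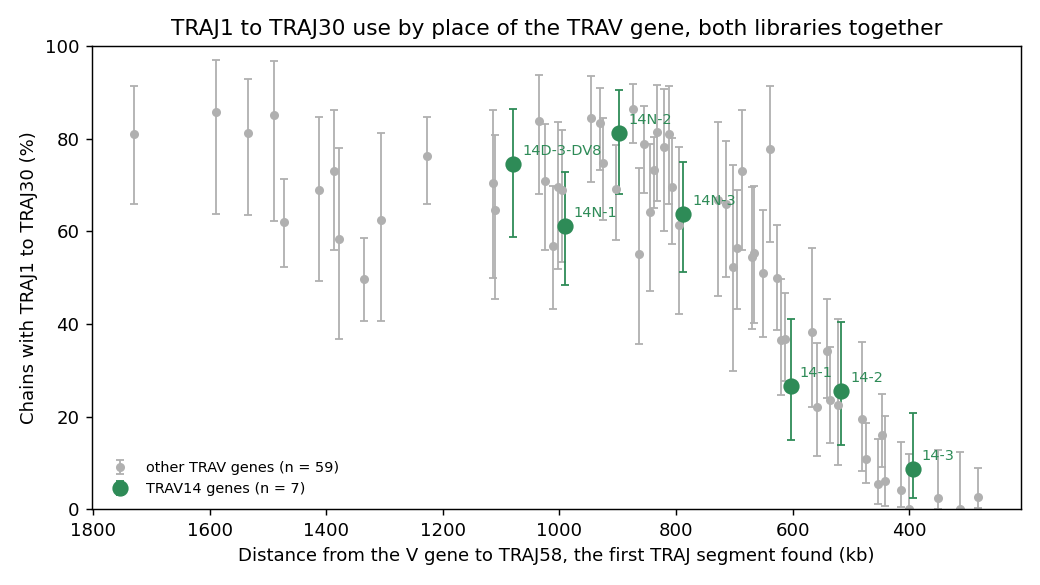
Share of chains with TRAJ1 to TRAJ30 (y axis, percent, with exact 95% intervals) against the distance of the V gene from TRAJ58 (x axis, kb, nearest at the right) for the 66 TRAV genes with at least 20 chains over both libraries. The 7 TRAV14 genes lie among the other genes at each distance, at 61.2–81.1% for the D and N copies and 8.70–26.5% for the 3 genes nearest to TRAJ; chains called TRAV14N-1 or TRAV14N-2 can come from the D copy farther away.

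Over all TRAV14 chains, TRAJ1 to TRAJ30 gave 44.1% (36.5–51.9%) of WT and 55.9% (48.8–62.8%) of Btla-/- chains. The other TRA chains had 49.1% (46.7–51.5%) and 58.2% (55.8–60.6%). The libraries were thus apart for the other TRA chains, while the TRAV14 intervals, from fewer chains, overlapped. All 43 TRAJ segments seen in the series had a TRAV14 chain, and 38 had one in both libraries. The most frequent partner was TRAJ31, in 8 WT and 12 Btla-/- chains. TRAJ58, at the V side of the cluster, was used by 9 and 10 chains, TRAJ22 by 5 and 13, TRAJ40 by 10 and 7, and TRAJ21 by 6 and 9. Of the 39 segments with at least 1% of the TRAV14 chains of a library, 0 were apart between the libraries, while among all TRA chains 7.32% of the segments were: TRAJ2 and TRAJ4, or 4.88%, were higher in the Btla-/- library, and TRAJ30, or 2.44%, was lower. The 2 counts cannot be set against each other, because all TRA chains, 1862 and 1920, give narrower intervals than the TRAV14 chains. TRAJ2 was used by 2 of 170 WT and 9 of 204 Btla-/- TRAV14 chains, or 1.18% and 4.41%. Among all TRA chains it was 1.45% and 4.84%.

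Within the Btla-/- library, TRAJ4 had a lower share in TRAV14 chains than in the other TRA chains. It was used by 2 of 204 TRAV14 chains, or 0.980% (0.119–3.50%), and by 90 of 1716 other TRA chains, or 5.24% (4.24–6.41%). In the WT library TRAJ4 was used by 0 of 170 TRAV14 chains, with an exact interval of 0–2.15%, and by 2.60% (1.90–3.48%) of the others, with overlapping intervals. The limit of 3 counts that a count of 0 allows is lower, at 1.76%. TRAJ4 was the 1 segment of 39 apart from the other TRA chains in the Btla-/- library, or 2.56%, and in the WT library 0 of 40 were. These are the segments with at least 1% of either the TRAV14 or the other TRA chains of the library. TRAJ4 passed this minimum only through the other TRA chains, where it was high. The count therefore does not by itself show a trait of TRAV14.

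The CDR3 start followed the germline V end. The residues CAA opened 166 of 170 WT CDR3s, or 97.6% (94.1–99.4%), and 195 of 204 Btla-/- CDR3s, or 95.6% (91.8–98.0%). Among the other TRA chains of the WT library, CAA opened 20.2% (18.3–22.1%). CAAS, which the germline V end encodes before its last base, was found in 65.3% (57.6–72.4%) and 59.8% (52.7–66.6%). CAAR came next, in 20 and 21 chains. The whole V end was kept in 38.2% (30.9–46.0%) of WT and 40.2% (33.4–47.3%) of Btla-/- chains, and the median loss was 1 base in both. A median of 3 bases lay between the recognizable V and TRAJ parts in both libraries, and none in 22 WT chains, or 12.9% (8.29–18.9%), and in 35 Btla-/- chains, or 17.2% (12.3–23.0%).

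CDR3 lengths centred on 13 and 14 amino acids. The mean was 13.7 ± 1.15 (SD over 170 chains) in the WT library, with a range of 10 to 16, and 13.6 ± 1.50 (SD over 204 chains) in the Btla-/- library, with a range of 10 to 17. CDR3s of 14 or more amino acids made up 52.9% (45.1–60.6%) and 50.0% (42.9–57.1%), beside 58.2% (55.8–60.6%) and 56.7% (54.3–59.1%) of the other TRA chains. In the WT library, 13 amino acids was the length that set TRAV14 apart, with 34.7% (27.6–42.4%) against 24.0% (22.0–26.1%). In the Btla-/- library the length apart from the other chains was 11, with 9.31% (5.70–14.2%) against 4.43% (3.51–5.51%). In each library this was 1 of 8 lengths compared, or 12.5%. Between the libraries, 11 amino acids was the 1 of 7 lengths apart for TRAV14, or 14.3%, with 1 of 170 WT and 19 of 204 Btla-/- chains. The WT share, 0.588% (0.0149–3.23%), was below the minimum of 1%. This length was thus compared only because it was high in the Btla-/- library, and the count does not by itself show a difference. For the other TRA chains 0 of 8 lengths were apart. These come from more chains, so the 2 counts cannot be set against each other.

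Short CDR3s were also taken as a class, which holds the chains of 11 amino acids just given. Those of 11 or fewer amino acids were 2 of 170 WT chains, or 1.18% (0.143–4.19%), and 21 of 204 Btla-/- chains, or 10.3% (6.49–15.3%), and these intervals were apart. In the other TRA chains the same class made up 5.91% (4.83–7.14%) and 5.94% (4.87–7.17%), so that the WT share of TRAV14 lay below the others and the Btla-/- share overlapped with them. Among the 16 TRAV subgroups TRAV14 was the 1 apart between the libraries for this class, or 6.25%, and the class was chosen after the lengths had been seen. With contigs of at least 3 UMIs (unique molecular identifiers, which count transcript molecules) the shares were 1.60% (0.194–5.66%) and 10.2% (5.37–17.1%), and the intervals then overlapped. For CDR3s of 12 or fewer amino acids, over all contigs, the shares were 12.4% (7.81–18.3%) and 22.1% (16.6–28.4%), and those intervals overlapped too. The 21 Btla-/- chains were spread over all 7 genes and 10 TRAJ segments, with 20 distinct chains in 21 cells. TRAV14N-3 gave 8 of them and TRAJ31 gave 7. All D and N copies together had 15 of 137 in the Btla-/- library and 0 of 95 in the WT library, with an exact interval of 0–3.81% (a limit of 3 counts is 3.16%). The short Btla-/- chains had lost a median of 4 bases of the V end, where the longer ones had lost 1, and both had a median of 3 UMIs. The 2 short WT chains had lost a median of 1.5. Since the chains were chosen for their length, the loss of bases only describes the class.

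The short chains with TRAJ31, the segment most often found in them, are shown in full for their joints, each sequence once. Capitals mark the bases that neither germline end accounts for, and all end in RIFF, encoded by TRAJ31.
Btla-/-, TRAV14N-2, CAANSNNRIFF: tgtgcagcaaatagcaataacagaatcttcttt
Btla-/-, TRAV14N-3, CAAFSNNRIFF: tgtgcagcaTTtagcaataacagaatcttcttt
Btla-/-, TRAV14-2, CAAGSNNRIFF: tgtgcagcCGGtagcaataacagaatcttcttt
Btla-/-, TRAV14-1, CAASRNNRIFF: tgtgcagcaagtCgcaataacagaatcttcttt
Btla-/-, TRAV14N-3, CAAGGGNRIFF: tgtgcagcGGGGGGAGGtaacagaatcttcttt
Btla-/-, TRAV14-2, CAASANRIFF: tgtgcagcaagtgCAaacagaatcttcttt
WT, TRAV14-2, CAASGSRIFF: tgtgcagcaagtgGGAGcagaatcttcttt
The first has 0 bases between the germline ends and the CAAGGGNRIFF chain has 9, and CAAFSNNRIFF was found in 2 cells with the same TRB chain, of TRBV29.

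**Figure D4:**
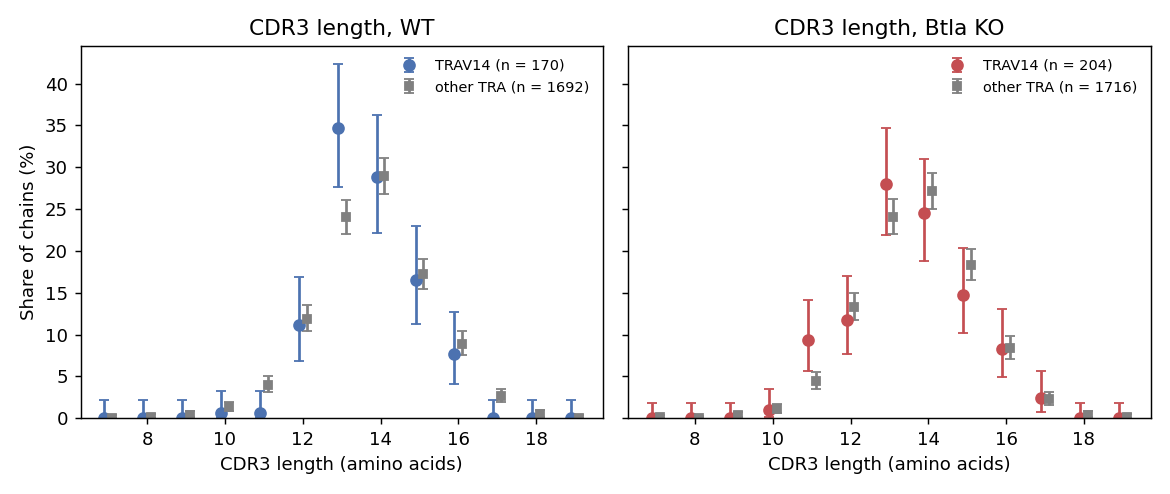
Share of chains (y axis, percent, with exact 95% intervals) at each CDR3 length (x axis, amino acids) for TRAV14 and all other TRA chains in each library. WT TRAV14 stands above the others at 13 amino acids and Btla-/- TRAV14 at 11.

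Nearly every TRAV14 cell also gave a beta chain, in 169 of 170 WT and 198 of 203 Btla-/- cells, with 182 and 212 TRB chains in all. TRBV13, the Vβ8 family, was the most frequent partner when a joint call of TRBV12-2 and TRBV13-2 was counted with it. It had 25.8% (19.6–32.8%) and 22.6% (17.2–28.9%), beside 20.6% (18.6–22.6%) and 20.4% (18.5–22.4%) in cells with another TRA chain. TRBV12, which holds the Vβ5 genes, had 11.5% (21 of 182 chains) and 10.8% (23 of 212), beside 10.9% and 9.64%. TRBV3 had 9.34% (5.54–14.5%) and 8.02% (4.74–12.5%), beside 5.73% and 6.51%. TRBV16 was found in 12 and 13 chains and TRBV19 in 10 and 15. Of the 16 TRBV subgroups with at least 1% in a library, 0 were apart between the libraries in TRAV14 cells, and 11.8% were among all TRB chains, 5.88% in each direction. All TRB chains, 4141 and 5181, give narrower intervals than the 182 and 212 of TRAV14 cells, so these counts are not comparable. Between TRAV14 cells and cells with another TRA chain, 0 of 16 were apart in the WT and 0 of 17 in the Btla-/- library. The intervals of the 2 sets of TRAV14 genes overlapped for TRBV13, which gave 25.0% (16.0–35.9%) in WT cells of the 3 genes nearest to TRAJ and 26.5% (18.2–36.1%) in those of the D and N copies, and 16.4% (8.49–27.5%) and 25.3% (18.5–33.2%) in Btla-/- cells. All these counts join TRBV13 with the joint call of TRBV12-2 and TRBV13-2. It was made for 17 WT and 21 Btla-/- chains of TRAV14 cells, or 9.34% and 9.91%. Without the joint call, TRBV13 had 16.5% and 12.7%, still above TRBV12. Counted with TRBV12 instead, the joint call would put TRBV12 first, so the rank depends on where it is placed.

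**Figure D5:**
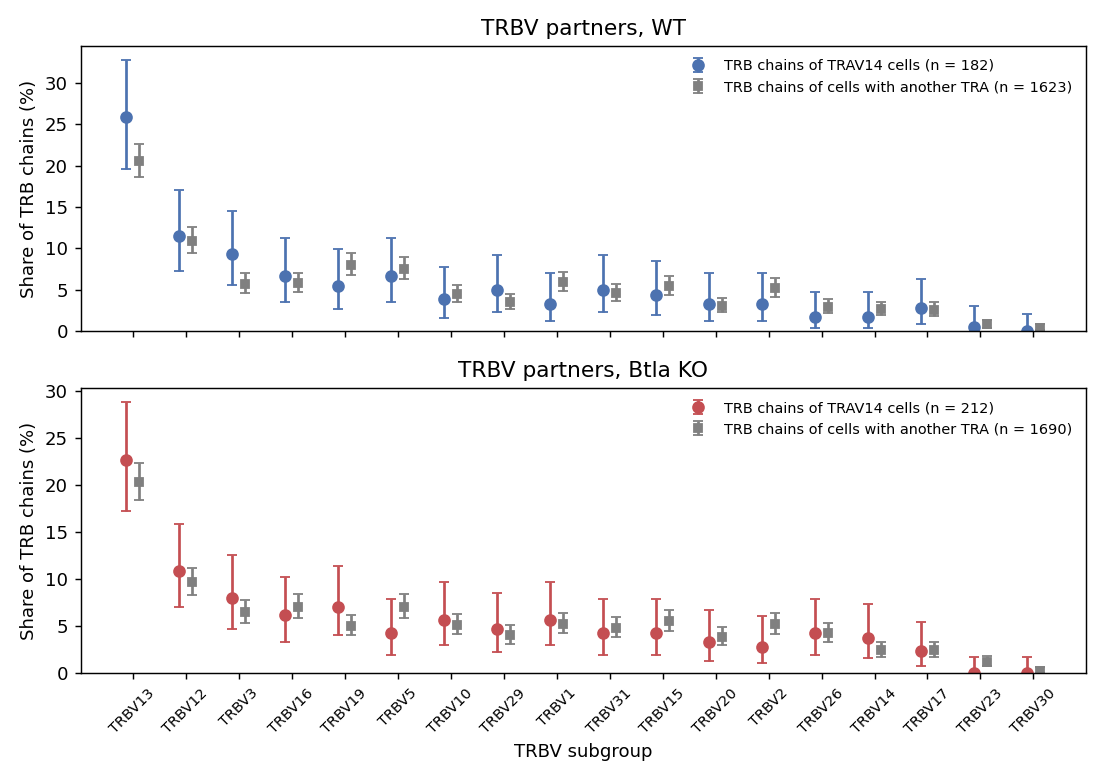
Share of TRB chains (y axis, percent, with exact 95% intervals) of each TRBV subgroup in TRAV14 cells and in cells with another TRA chain, by library. The intervals of the 2 kinds of cell overlap for every subgroup with at least 1% of the chains. TRBV13, counted with the joint call of TRBV12-2 and TRBV13-2, is the most frequent partner in both libraries.

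Each TRAV14 contig rested on few molecules. The number of UMIs per contig had a lowest value of 1, a median of 5 (4 to 5) and a highest value of 17 in the WT library, and 1, 3 (3 to 3) and 23 in the Btla-/- library. The other TRA chains had a median of 3 in both. At least 3 UMIs were found for 73.5% (66.2–80.0%) of WT and 57.8% (50.7–64.7%) of Btla-/- TRAV14 contigs, and for 68.3% and 54.1% of the other TRA contigs. The WT contigs were therefore the better covered, also by reads, with a median of 1274.5 against 709.5. In all, the libraries held 80347 and 75456 UMIs. Of their 4040 and 5077 cells, 1704 WT and 1798 Btla-/- cells gave a TRA chain. Counts of second alpha chains and of repeated chains cover these cells only. No gamma or delta contig was found, 169 WT and 201 Btla-/- TRAV14 chains were joined to TRAC and the rest had no constant gene call. Since the libraries hold TCR transcripts alone, neither CD4 nor Btla could be checked. The libraries had 30 cell barcodes in common, with 0 CDR3s in common, and 1 WT TRAV14 cell carried such a barcode.

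A second alpha chain was found in 21 of 170 WT and 22 of 203 Btla-/- TRAV14 cells, or 12.4% (7.81–18.3%) and 10.8% (6.92–15.9%). In cells without TRAV14 it was 8.93% (7.55–10.5%) and 6.27% (5.13–7.57%), but a cell with 2 alpha chains has more chances to hold TRAV14. In the Btla-/- library, 1 cell had 2 TRAV14 chains, TRAV14N-3 with TRAJ9 and TRAV14-1 with TRAJ26, each with 1 UMI.

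Most chains were seen once. A chain with the same V gene, TRAJ segment and CDR3 nucleotides in more than 1 cell accounted for 19 of 170 WT chains, or 11.2% (6.86–16.9%), from 9 repeated chains, and for 20 of 204 Btla-/- chains, or 9.80% (6.09–14.7%), from 10. Cells of the same repeated chain shared a TRB chain in 5 of the 9 and 7 of the 10. The most frequent was a WT chain of TRAV14-2 and TRAJ40 with the CDR3 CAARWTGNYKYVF, in 3 cells that all had the same TRB chain of TRBV13-1 and TRBJ2-1. It is shown as the largest clone of the subgroup, with capitals as above for its alpha CDR3 and none for its beta CDR3.
alpha CDR3, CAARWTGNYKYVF: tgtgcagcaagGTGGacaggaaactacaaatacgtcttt
beta CDR3, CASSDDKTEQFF: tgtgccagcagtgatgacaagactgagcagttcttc

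Between the libraries, 3 TRAV14 CDR3s had the same TRAJ segment and the same nucleotides. They are shown because each consists of the 13 germline V bases and TRAJ bases with 0 bases between, so none is in capitals.
CDR3 with TRAJ13: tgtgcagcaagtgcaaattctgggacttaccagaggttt
CDR3 with TRAJ16: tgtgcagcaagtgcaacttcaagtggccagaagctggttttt
CDR3 with TRAJ22: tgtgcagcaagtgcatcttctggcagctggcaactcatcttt
The TRAJ13 sequence belonged to 2 WT and 2 Btla-/- cells and came with 4 different V genes, TRAV14D-3-DV8, TRAV14N-2, TRAV14N-1 and TRAV14N-3. The TRAJ16 sequence (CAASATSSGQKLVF) was found in 2 WT cells and 1 Btla-/- cell, all with TRAV14-2. The TRAJ22 sequence (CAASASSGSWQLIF) was found in 1 WT cell with TRAV14N-2 and in 4 Btla-/- cells with TRAV14-2, TRAV14N-1 or TRAV14N-2. No TRB chain was shared across the libraries by these cells. The 3 sequences were 1.92% (0.398–5.52%) of the 156 distinct WT and 1.60% (0.330–4.59%) of the 188 distinct Btla-/- combinations of TRAJ segment and CDR3 nucleotides. By amino acids, 5 CDR3s were shared, the further ones being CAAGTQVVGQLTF with TRAJ5 and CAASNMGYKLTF with TRAJ9, each encoded by different nucleotides in the 2 libraries.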

How the data were processed

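Reads were assembled into contigs by the authors (Cell Ranger 7.2.0, V(D)J reference of GRCm38). UMI and read counts of the contigs of called cells were deposited raw, without normalization. The 3 deposited summary tables (V gene percentages, clone proportions, CDR3 lengths) were not used.

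Every productive chain was counted, and no doublets were removed. The members and lists were chosen with earlier results of these data known. All 7 TRAV14 genes are named, with the 5 most frequent TRAJ segments and TRBV subgroups, any apart between the libraries, the 3 largest other TRAV subgroups, and chains in 3 or more cells or in both libraries; further genes are named because of their values or as neighbours. Features with at least 1% of the chains of a library were compared, and within a library those with at least 1% of either set of chains. V sequences and positions came from GRCm38 and GENCODE. A CDR3 was matched to the germline V end from its start, then to the TRAJ segment from its end, so bases that fit both count as V. UMIs count molecules with amplification error, and intervals cover counting error only. Alternatives are given in the closing section. Computations used Python 3.11.15, pandas 2.3.3 and SciPy 1.17.1, tested on simulated data.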

Additional observations from a re-analysis of the deposited data

How the results depend on the processing

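Shares were recomputed for cells holding exactly 1 chain of each kind, contigs of 3 or more UMIs, distinct chains, shared barcodes left out, 1 contig of each kind per cell, and other class definitions. Of 138 alternative values, 114 stayed within the main interval. The alternatives for the sets of TRAV14 genes and for short CDR3s were added after seeing the data. The values outside follow, WT first. Joining copies by member number made the most used member 43.5% and 41.2% of TRAV14 chains. With the boundary after TRAJ20, the share of low TRAJ numbers was 22.4% and 33.3% over all TRAV14 chains, 5.33% and 11.9% for the 3 genes nearest to TRAJ, and 35.8% and 43.8% for the D and N copies. After TRAJ40 it was 63.5% and 75.0%, 40.0% and 56.7%, and 82.1% and 83.9%. The 2 sets of genes were apart in all 7 settings of each library, by 30.5 to 60.5 percentage points in WT and 27.2 to 41.0 in Btla-/- chains. CDR3s of 15 or more amino acids were 24.1% and 25.5%. The first 4 residues CAAS gave 65.3% and 59.8%. Without the joint call, TRBV13 was 16.5% and 12.7%. Repeated chains were 6.40% and 1.69% with at least 3 UMIs, and 17.6% and 16.7% by amino acids. No paired analysis was possible because there is 1 library per genotype. The limit is depth and number. With 19 to 42 chains per gene and library, single genes have wide intervals, and 1 library per genotype leaves differences between mice unmeasured. CDR3s of 11 or fewer amino acids were apart between the libraries in 4 of 5 alternatives, but those of 12 or fewer were not apart.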
